A study of Mus musculus with 8 samples.

Results

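Laminins and nidogens are proteins of the basement membrane, the sheet of matrix that lies under epithelia and around muscle, nerve and blood vessels. The members described here are 10 genes, taken by symbol from a table of 55681 genes: the alpha chains Lama1, Lama2, Lama3, Lama4 and Lama5, the beta chains Lamb1 and Lamb2, the gamma chain Lamc1, and the nidogens Nid1 and Nid2. RNA was sequenced from the whole small intestine of 8 mouse embryos on the C57BL6J background at E15.5 (the embryonic day). The 4 controls had the genotype Slmap fl/fl, and the 4 embryos labelled cKO were Slmap fl/fl with a Cre spelled Derom-Cre or Dermo-Cre. Both groups therefore carry the floxed alleles, and each library came from 1 intestine. Dermo1 is now called Twist2 and is active in mesenchymal cells, so cells outside the mesenchyme, such as the epithelium, are not its target. The design text asks what lies behind the shortened gut of the mutants. Bulk tissue was measured, so fewer cells of a type and less RNA per cell cannot be told apart.

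A laminin is a heterotrimer of an alpha, a beta and a gamma chain. Trimers in which every chain has a full amino-terminal arm polymerize on the cell surface through these arms. The alpha chain carries the globular domains that integrins and dystroglycan bind. Nidogens bind the gamma chain encoded by Lamc1 and also bind collagen IV and perlecan, which links the laminin and collagen networks. In the embryonic gut the basement membrane separates the epithelium from the mesenchyme, and both tissues supply its components.

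Reads recovered from the deposited FPKM (fragments per kilobase of gene length, scaled to the size of the library) summed to 15663837 to 17806397 per library. Comparisons of levels between genes rest on the deposited gene lengths, such as 9917 bases for Lamb1, 8272 for Lamc1, 16605 for Lama2 and 9681 for Lama1. Whether these lengths match the transcripts made in this tissue was not tested. Slmap lay at 24.1 ± 0.92 FPKM among the controls and 25.5 ± 1.40 FPKM in the cKO libraries (SD, n = 4 each; limma adjusted p = 0.57). This gene-level value of whole tissue was not lower, the sources used here do not give the floxed exon, and directions below follow the labels: cKO libraries are the libraries labelled cKO. Controls 3 and 4 stood apart on the first principal component, at 33.3 and 24.3 against -27.5 to 9.24 in the other libraries, with at least 1 read in 25832 and 25934 genes against 23883 to 24071. On the second principal component the controls lay at 12.4 to 15.8, cKO 2 at 6.16 and the other cKO libraries at -24.6 to -15. cKO 2 had the lowest weight (0.329) when libraries were weighted by their fit to the groups. Markers of epithelium, smooth muscle, fibroblasts and endothelium were all detected, with none of their genes at 0 in all libraries. The same held for the skeletal muscle, pancreas and liver markers, so it does not tell which cell types the tissue held. The pancreas markers summed to 46.0 to 71.0 FPKM among the controls and 14.1 to 86.2 FPKM in the cKO libraries. Of the skeletal muscle markers Myod1 was listed at 0 in 7 of the libraries and reached 0.032 FPKM in control 1, and Myog reached at most 0.148 FPKM. Ckm and Actn3, from the same list, were above 0 in every library, at 0.611 to 1.48 FPKM and 0.175 to 0.439 FPKM.

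Lamc1, the gamma chain of nearly every laminin trimer outside the skin, was the highest member, with a mean of 45.8 ± 10.9 FPKM over the libraries (SD, n = 8). Lamb1, the beta chain most often found with it, followed at 33.8 ± 6.56 FPKM and was below Lamc1 in 8 of 8 libraries. Nid1 lay at 29.6 ± 4.99 FPKM and Nid2 at 22.8 ± 3.89 FPKM. The ranges of neighbours among these genes overlapped, although Nid1 exceeded Nid2 in 8 of 8 libraries and Lamb1 exceeded Nid1 in 7 of 8. Lama5, the alpha chain of most epithelial basement membranes, lay at 14.2 ± 2.43 FPKM, below Nid2 with no overlap of their ranges. Lama4, an alpha chain of vessel walls and mesenchyme, lay at 10.7 ± 2.40 FPKM, and Lamb2, a beta chain known from the kidney glomerulus and the neuromuscular junction, at 10.4 ± 1.67 FPKM. The order of Lama4 and Lamb2 was not settled, since Lama4 was the higher in only 6 of 8 libraries.

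The other alpha chains were far lower. Lama1, the first alpha chain made by the early embryo, lay at 1.40 ± 0.26 FPKM, and the mean of Lamb2 was 7.45 times as high. Lama2, the alpha chain of the muscle basement membrane, lay at 1.04 ± 0.236 FPKM, just above the mean of 1 FPKM that a gene needed to be tested. Lama3, the alpha chain of the laminin that anchors the skin epithelium, lay at 0.568 ± 0.12 FPKM and was the 1 member under that limit. Lamb3, a beta chain that joins Lama3 in that trimer, was also low, at 0.407 to 0.719 FPKM over the 8 libraries. Reads per library ranged from 69 to 137 for Lama3 and from 5069 to 8580 for Lamc1. Counting error alone gives a relative SD of 12.0% at the lowest Lama3 count and 1.40% at the lowest Lamc1 count.

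**Figure D1:**
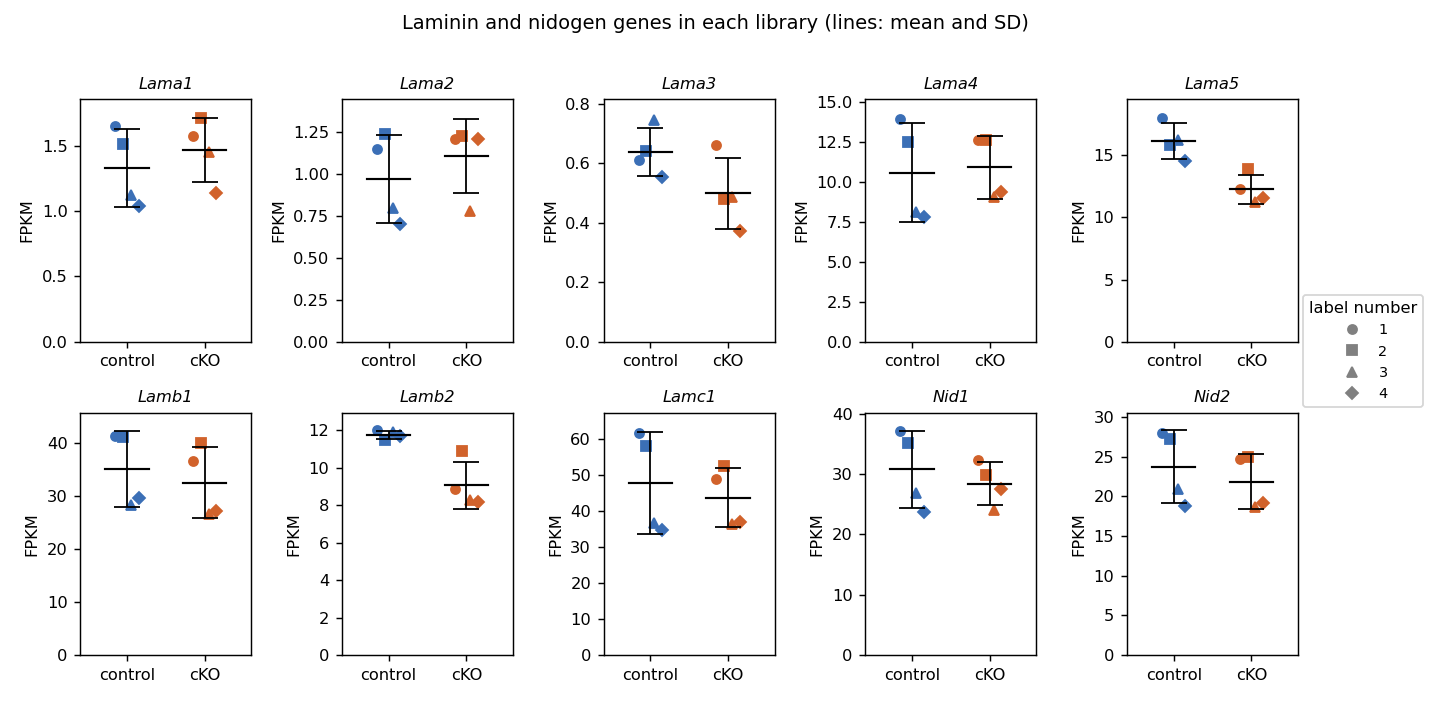
FPKM of the 10 members in each library (vertical axes, each starting at 0), controls in blue and libraries labelled cKO in orange, with the label number as the symbol and the mean and SD of 4 libraries as lines. Lama5 and Lamb2 are lower in every library labelled cKO than in every control, whereas Lamc1, Lamb1, Lama4, Nid1 and Nid2 are higher in libraries numbered 1 and 2 than in those numbered 3 and 4 within both groups.

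Between the groups, 0 of the 9 members tested passed with limma at an adjusted p of 0.05, in either direction. Over all 14220 genes tested 2 passed, both lower, or 0.0141%. At an unadjusted p under 0.05, 2 members were lower and 0 higher, beside 9.87% of all genes lower and 12.6% higher. Fits by limma-voom on recovered reads also passed 0 members. Below a log2 fold change of 0 lay 6 of the 9 members, beside 50.3% of all genes, and the median of the members was -0.10 against 0.00 for all genes. The median of the members was -0.04 once GC content and length were corrected for, and -0.35 without controls 3 and 4, against 0.01 and -0.01 for all genes.

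Lama5 (ENSMUSG00000015647, chromosome 2, 179818166 to 179867652, minus strand, GRCm39) lay at 18, 15.8, 16.2 and 14.5 FPKM in controls 1 to 4. In the cKO libraries 1 to 4 it lay at 12.3, 13.9, 11.2 and 11.6 FPKM. Each of the latter was below every control, and the nearest values were control 4 and cKO 2. The group means were 16.2 ± 1.46 and 12.2 ± 1.22 FPKM (SD, n = 4 each). The log2 fold change on the scale of log2(FPKM + 1) was -0.37 ± 0.09 (SE; adjusted p by limma = 0.0819), with a fold of 0.667 to 0.894 at 95% confidence. The value was -0.35 between the libraries numbered 1 and 2 and -0.40 between those numbered 3 and 4.

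Lamb2 (ENSMUSG00000052911, chromosome 9, 108356935 to 108367729, plus strand) lay at 12.0, 11.5, 11.9 and 11.7 FPKM in the controls, a narrow spread. Its values in the cKO libraries 1 to 4 were 8.85, 10.9, 8.29 and 8.20 FPKM. All of these were below every control, and cKO 2 lay closest to them. The means were 11.8 ± 0.226 and 9.06 ± 1.27 FPKM (SD, n = 4 each). On the log2 scale the difference was -0.35 ± 0.09 (SE; adjusted p by limma = 0.0869), with a 95% interval of the fold of 0.678 to 0.906. Between libraries numbered 1 and 2 it was -0.23, and between those numbered 3 and 4 it was -0.47.

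Lama5 and Lamb2 were thus the 2 of the 9 tested members whose groups did not overlap, both with the cKO libraries lower, beside 5.75% of all genes on that side. Neither passed in the fit of all 8 libraries with equal weights, and both passed in 3 of 20 alternative fits. Without cKO 2 the adjusted p was 0.0277 for Lama5 and 0.0178 for Lamb2, at log2 fold changes of -0.43 and -0.44, beside 4.15% of all genes called lower. With a term for label numbers 1 and 2 against 3 and 4 the adjusted p was 0.0405 and 0.047, beside 3.4% of all genes called lower. Array quality weights gave 0.0165 and 0.0159, beside 7.24% of all genes called lower.

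GC content moved with the fold change over all genes, and these 2 were the richest in it among the tested members. The longest transcript of Lama5 had 59.9% GC, above 95.6% of the genes tested, and that of Lamb2 had 58.8%, above 93.2%. Genes were put in 20 equal groups by GC content, and the log2 fold change had a median of -0.24 in the group that holds Lama5 and -0.20 in the group that holds Lamb2. Once GC content and length had been corrected for in every library, the difference on the log2 scale was -0.18 ± 0.08 for Lama5 and -0.17 ± 0.09 for Lamb2 (SE; adjusted p by limma = 0.415 and 0.46). The other 7 tested members had 47.7% to 54.6% GC.

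Summed markers of mesothelium and macrophages were also lower in every cKO library than in every control. The 5 mesothelial markers, all with a log2 fold change below 0 and none called, summed to 36.2 to 60.5 FPKM among the controls and 26.2 to 28.9 FPKM in the cKO libraries, without overlap. The 4 macrophage markers summed to 32.0 to 35.3 FPKM and 22.1 to 30.8 FPKM. The 3 of them that were tested had a log2 fold change below 0, with none called. Single values went the other way: Csf1r in cKO 1 (6.68 FPKM) and Ptprc, which was not tested, in cKO 3 and 4 (0.939 FPKM in each) were above every control. The 7 smooth muscle markers, 6 of them with a log2 fold change below 0 (median -0.23, none called), summed to 1210.7 to 1733.1 FPKM among the controls. Their sums were below every control in cKO 1, 3 and 4, at 1086.4 to 1177.5 FPKM, and reached 1479.4 FPKM in cKO 2. Of the 5 pericyte markers 4 lay below 0 (median -0.31, none called), with sums of 55.8 to 69.6 FPKM and 45.1 to 68.7 FPKM, which overlapped. The 9 epithelial markers all had a log2 fold change above 0, with none called. Their median was 0.14 with all libraries, 0.31 after the GC and length correction, 0.28 without cKO 2 and -0.04 without controls 3 and 4. For the mesothelial markers these medians were, in the same order, -0.57, -0.58, -0.63 and -0.36. The part of these cell types in the values of Lama5 and Lamb2 was not tested.

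**Figure D2:**
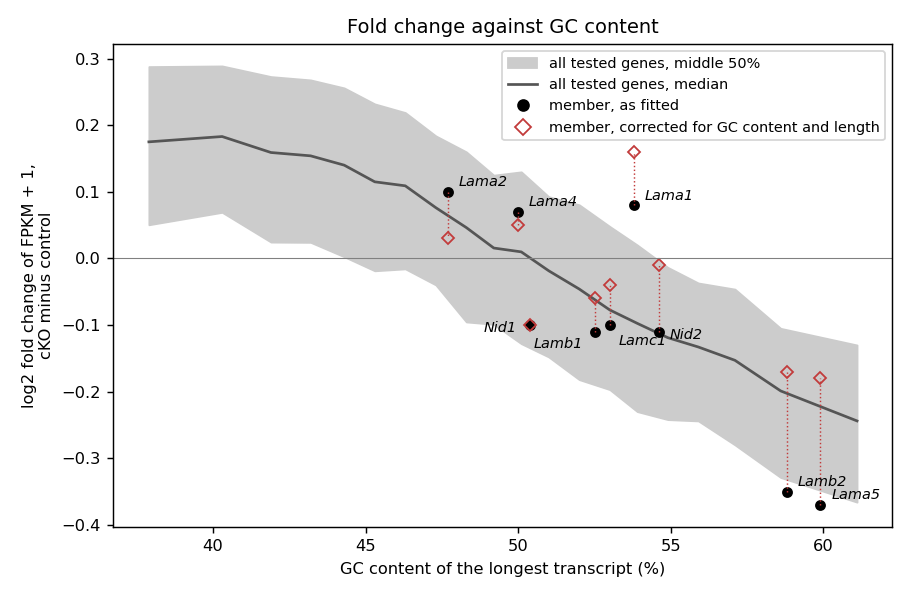
The log2 fold change, cKO minus control, of log2(FPKM + 1) (vertical axis) against the GC content of the longest transcript in percent (horizontal axis). The grey line and band are the median and the interquartile range of all tested genes in 20 equal groups, black circles are members as fitted, and open red diamonds are the same genes after the correction, where Lama5 stands at -0.18 and Lamb2 at -0.17.

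The 4 promoters shown here are those of the 2 members without overlap, Lama5 and Lamb2, and of 2 members that followed the label numbers, Lamb1 and Nid1. RefSeq promoters of build GRCm38.p6 matched 5 of the 10 members by symbol (Lama2 as well). Each run is read 5′ to 3′ on the strand of the gene, from 250 to 61 bases before the start of the gene (for Lamb2 to 127 bases before it, ahead of an upstream exon). The capitals mark matches, on either strand, to the letters GGGCGG of SP factors, CCAAT of the CCAAT box, GGAATG of TEAD factors and TATAAA of the TATA box. Matches on the other strand read as the reverse complement, and none of the matches overlap.
Lama5, chr2:180225920-180226109, minus strand: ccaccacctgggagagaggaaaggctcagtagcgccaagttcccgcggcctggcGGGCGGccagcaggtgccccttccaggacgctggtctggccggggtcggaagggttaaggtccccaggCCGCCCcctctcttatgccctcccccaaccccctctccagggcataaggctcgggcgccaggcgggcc
Lamb2, chr9:108479612-108479735, plus strand: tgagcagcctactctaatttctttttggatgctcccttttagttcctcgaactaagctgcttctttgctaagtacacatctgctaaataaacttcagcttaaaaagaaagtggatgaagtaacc
Lamb1, chr12:31265043-31265232, plus strand: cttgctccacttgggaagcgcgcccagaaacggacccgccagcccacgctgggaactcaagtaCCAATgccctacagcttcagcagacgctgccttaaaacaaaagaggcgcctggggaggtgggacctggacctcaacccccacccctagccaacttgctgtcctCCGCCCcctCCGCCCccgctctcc
Nid1, chr13:13437352-13437541, plus strand: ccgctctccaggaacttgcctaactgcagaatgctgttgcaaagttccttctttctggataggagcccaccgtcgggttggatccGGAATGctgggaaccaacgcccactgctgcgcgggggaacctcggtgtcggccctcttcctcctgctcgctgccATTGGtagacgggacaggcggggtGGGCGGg
The Lama5 stretch held 71.1% GC, that of Lamb1 64.2% and that of Nid1 62.6%, against a median of 51.6% for the same stretch of all 32851 RefSeq promoters. The shorter Lamb2 stretch held 37.9% GC, against a median of 50.8%, so Lama5 and Lamb2 lay on opposite sides of the median. GGGCGG was found in the stretches of Lama5, Lamb1 and Nid1, and 22.8% of all promoters hold it over that length. CCAAT was found in those of Lamb1 and Nid1 (26.7% of all promoters) and GGAATG in that of Nid1 (10.2%), with TATAAA in none of them (8.73%). The Lamb2 stretch held none of the motifs, which over its length occur in 6.22% to 16.7% of promoters. A match is a string of letters and not a bound site.

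Lamc1 (ENSMUSG00000026478, chromosome 1, 153094668 to 153208532, minus strand) showed a different layout. Its values were 61.8, 58.1, 36.7 and 34.7 FPKM in controls 1 to 4 and 48.9, 52.6, 36.4 and 37.1 FPKM in the cKO libraries 1 to 4. The ranges of the groups overlapped, and the gap lay between numbers 1 and 2 and numbers 3 and 4. The log2 fold change was -0.10 ± 0.22 (SE; adjusted p by limma = 0.827; 95% interval of the fold 0.666 to 1.31). The sign turned without control 1, to 0.04, and without control 2, to 0.00854, while without controls 3 and 4 it was -0.46 ± 0.17 (SE; adjusted p by limma = 0.154).

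Lamb1 (ENSMUSG00000002900, chromosome 12, 31315233 to 31379643, plus strand) lay at 41.3, 41.2, 28.3 and 29.6 FPKM among the controls and at 36.5, 39.9, 26.6 and 27.1 FPKM in the cKO libraries. It had the same gap between numbers as Lamc1. Its log2 fold change came to -0.11 ± 0.18 (SE; adjusted p by limma = 0.768; 95% interval of the fold 0.701 to 1.23). Within numbers it was -0.11 between libraries 1 and 2 and -0.10 between libraries 3 and 4. Leaving out 1 library moved it between -0.21 and -0.02, and leaving out controls 3 and 4 together gave -0.36.

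Nid1 (ENSMUSG00000005397, chromosome 13, 13612136 to 13686854, plus strand) lay at 37.2, 35.2, 26.9 and 23.8 FPKM among the controls and 32.3, 29.9, 24.0 and 27.5 FPKM in the cKO libraries. The latter all lay inside the range of the controls. Between groups the log2 fold change was -0.10 ± 0.16 (SE; adjusted p by limma = 0.756; 95% interval of the fold 0.732 to 1.19). Nid2 (ENSMUSG00000021806, chromosome 14, 19801333 to 19861855, plus strand) lay at 28, 27.2, 20.9 and 18.8 FPKM in the controls. In the cKO libraries it lay at 24.7, 24.9, 18.6 and 19.1 FPKM, and the groups overlapped. Its log2 fold change was -0.11 ± 0.16 (SE; adjusted p by limma = 0.725; 95% interval of the fold 0.726 to 1.19). With 1 library left out, the value ranged from -0.21 to -7.51e-05 for Nid1 and from -0.21 to -0.02 for Nid2, and without controls 3 and 4 it was -0.35 and -0.34. Nid2 shares 437 bases with Rtraf, a gene on the opposite strand at a mean of 63.4 FPKM, and reads there cannot be told apart without strand.

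Lama4 (ENSMUSG00000019846, chromosome 10, 38841511 to 38986184, plus strand) lay at 13.9, 12.5, 8.08 and 7.79 FPKM in the controls. In the cKO libraries it lay at 12.6, 12.6, 9.05 and 9.38 FPKM, all inside the range of the controls. On the log2 scale the difference was 0.07 ± 0.20 (SE; adjusted p by limma = 0.875; 95% interval of the fold 0.768 to 1.43). Its sign turned without controls 3 and 4, to -0.27 (limma adjusted p = 0.317), and also without control 3, control 4, cKO 1 or cKO 2 alone (-0.05 to -0.001). The 7 endothelial markers summed to 93.4, 93.8, 56.3 and 61.2 FPKM among the controls and 79.9, 85.4, 73.5 and 69.7 FPKM in the cKO libraries, and their part in the Lama4 values was not tested.

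Lama1 (ENSMUSG00000032796, chromosome 17, 68004254 to 68129642, plus strand) lay at 1.65, 1.51, 1.12 and 1.04 FPKM among the controls and 1.57, 1.71, 1.45 and 1.14 FPKM in the cKO libraries. The groups overlapped, with a log2 fold change of 0.08 ± 0.13 (SE; adjusted p by limma = 0.744). Lama2 (ENSMUSG00000019899, chromosome 10, 26856032 to 27495754, minus strand) lay at 1.15, 1.24, 0.796 and 0.70 FPKM in the controls. The libraries labelled cKO gave 1.21, 1.23, 0.778 and 1.21 FPKM, of which cKO 3 stood far below the other 3. The log2 fold change was 0.10 ± 0.14 (SE; adjusted p by limma = 0.72). Without controls 3 and 4 the log2 fold changes of Lama1 and Lama2 were both -0.07. Lama3 (ENSMUSG00000024421, chromosome 18, plus strand) lay at 0.61, 0.64, 0.746 and 0.554 FPKM among the controls and 0.66, 0.479, 0.486 and 0.372 FPKM in the cKO libraries. Of the latter, 3 were below every control and cKO 1 was above 3 of the controls. With no filter on low values its log2 fold change was -0.13 (limma adjusted p = 0.614).

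**Figure D3:**
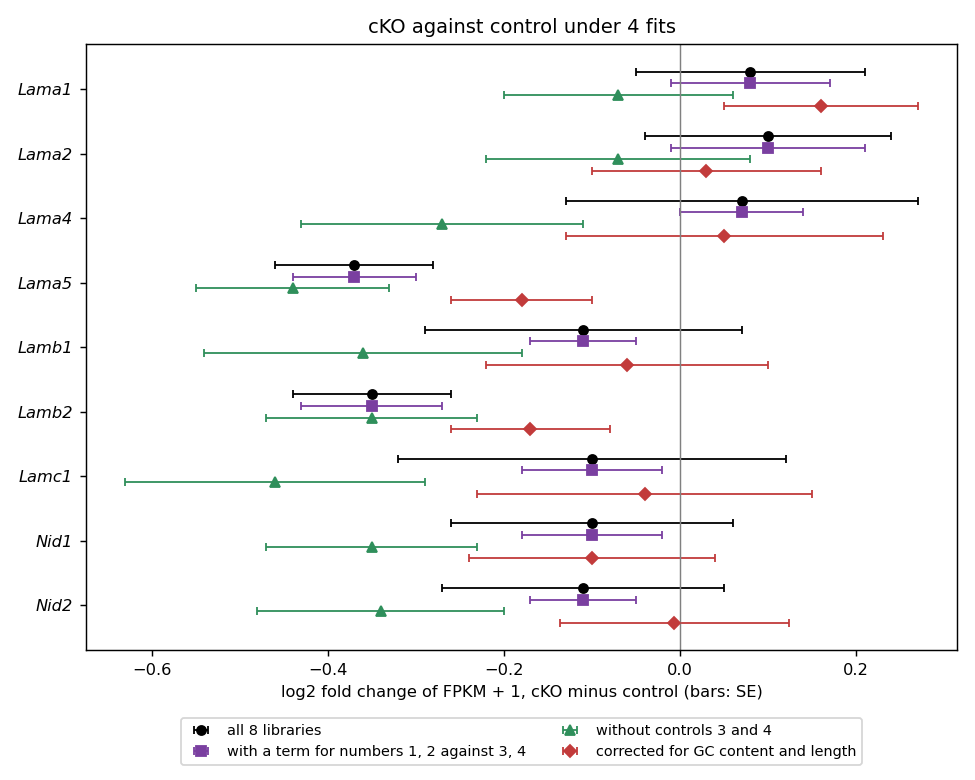
Log2 fold changes of log2(FPKM + 1), cKO minus control (horizontal axis), for the 9 tested members under 4 fits, with bars for the SE. Lama5 and Lamb2 lie below 0 under each of the 4, from -0.44 to -0.17, while Lama1, Lama2 and Lama4 lie above 0 except without controls 3 and 4.

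The label number sorted most of the family. Lamc1, Lamb1, Nid1, Nid2, Lama4 and Lama1 were higher in each library numbered 1 or 2 than in each numbered 3 or 4, within the controls and within the cKO libraries. That made 6 of 10 members, beside 14.4% of all genes tested, and the labels do not say what the number stands for. On the log2(FPKM + 1) scale, controls 3 and 4 minus controls 1 and 2 came to -0.73 for Lamc1, -0.67 for Lama4 and -0.50 for Lamb1. The same step among the cKO libraries was -0.45 for Lamc1, -0.41 for Lama4 and -0.49 for Lamb1. For Lama5 it was -0.13 and -0.19, and for Lamb2 0.01 and -0.23.

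Summed markers of fibroblasts, smooth muscle, endothelium, pericytes, neurons and erythroid cells were likewise higher in numbers 1 and 2 than in 3 and 4 within both groups. The 6 fibroblast genes summed to 861.6, 850.5, 544.2 and 510.7 FPKM in controls 1 to 4 and to 703.9, 818.8, 460.3 and 485.0 FPKM in the cKO libraries. The 7 smooth muscle markers summed to 1578.3, 1733.1, 1210.7 and 1247.5 FPKM among the controls and 1177.5, 1479.4, 1086.4 and 1088.3 FPKM in the cKO libraries. For the 5 neuronal markers the sums were 97.4, 95, 60.6 and 66.1 FPKM, and 77.2, 99.4, 61.3 and 59.2 FPKM. The 9 epithelial markers summed to 1331.0, 1286.3, 987.2 and 1127.4 FPKM among the controls and 1375.9, 1071.3, 1447.5 and 1450.0 FPKM in the cKO libraries, so controls 3 and 4 were the lowest controls here too, without such a step in the cKO libraries. Within the fibroblast list, Col1a1 stepped from 388.7 and 374.0 FPKM in controls 1 and 2 to 216.0 and 193.7 FPKM in controls 3 and 4, whereas Pdgfra stayed at 19.9 to 21.5 FPKM. The part of these cell types in the laminin and nidogen values was not tested.

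Members also differed in how closely they followed each other, measured as the root mean square difference between their log2(FPKM + 1) values, each centred on its own mean over the 8 libraries. The closest 2 members were Nid1 and Nid2, at 0.0645. Lamb1 was next to Nid2 at 0.0735, and Lamc1 to Lama4 at 0.0915. Lama5 and Lamb2 were each other's nearest member at 0.0769, and the next nearest stood at 0.197 from Lama5 and 0.226 from Lamb2. These distances share the same libraries and scaling and describe these samples only. Among 12269 protein-coding genes outside the family, the 3 nearest to Lama5 were Cacna1h (0.0442), a calcium channel gene, Itprip (0.0498) and Dgcr6 (0.056). Their longest transcripts were also rich in GC, at 60.0%, 56.8% and 60.1%, beside 59.9% for Lama5. The 3 such genes nearest to Lamc1 were Mmp2 (0.0489), a matrix metalloproteinase that cleaves collagen IV, Egflam (0.0566), whose protein pikachurin binds dystroglycan, and Mvb12b (0.0598).

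Ratios within a library are free of the scaling between libraries, but their size rests on the deposited gene lengths. Lama5 made up 51.0%, 50%, 60.2% and 59.0% of the summed FPKM of the 5 alpha chains in controls 1 to 4. In the cKO libraries it made up 43.4%, 46.5%, 48.7% and 49.0%, below every control. Lama4 made up 39.3%, 39.4%, 29.9% and 31.7% in the controls and 44.4%, 42.1%, 39.5% and 39.5% in the cKO libraries, above every control, although 39.4% and 39.5% nearly meet. The share of Lama1 was 4.16% to 4.75% in the controls and 4.79% to 6.31% in the cKO libraries, again without overlap. Here too 4.75% and 4.79% nearly meet, and the FPKM of Lama1 itself overlapped between the groups. Shares of 1 total are not independent of each other. The alpha chains summed to 24.6 to 35.3 FPKM among the controls and 22.9 to 30 FPKM in the cKO libraries, which overlapped.

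**Figure D4:**
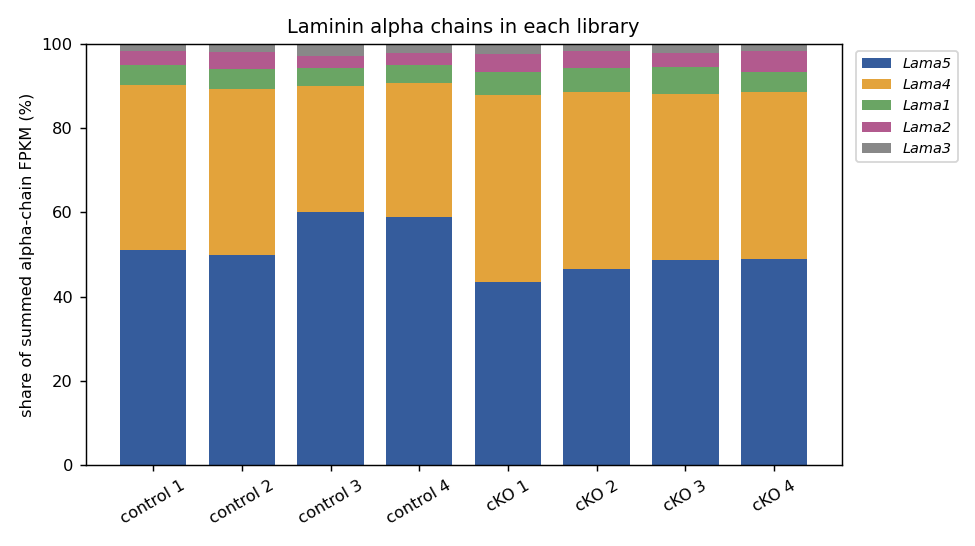
Share of each alpha chain, in percent of the summed FPKM of the 5 alpha chains (vertical axis), in each of the 8 libraries (horizontal axis). Lama5, at the bottom of each bar, takes 50% to 60.2% in the controls and 43.4% to 49.0% in the cKO libraries, and Lama1, Lama2 and Lama3 together form the thin top. The shares are not corrected for GC content.

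The ratio of Lama5 to Lama4 was 1.30, 1.27, 2.01 and 1.86 in controls 1 to 4 and 0.977, 1.10, 1.23 and 1.24 in the cKO libraries. The groups did not overlap, and within each group numbers 3 and 4 had the higher ratios. After the GC and length correction the log2 fold change was -0.18 for Lama5 and 0.05 for Lama4. How often ratios or shares of other genes separate the groups was not tested. Lamb2 stood at 0.278 to 0.422 of Lamb1 in the controls and 0.242 to 0.312 in the cKO libraries, which overlapped. The ratio of Lama5 to Lamb2 differed by less than its spread, at 1.37 ± 0.111 and 1.36 ± 0.0604 (SD, n = 4 each). So did that of the nidogens, with Nid1 at 1.29 ± 0.027 times Nid2 in the controls and 1.31 ± 0.0961 times in the cKO libraries. Lamb1 stood at 0.75 ± 0.0795 of Lamc1 and at 0.742 ± 0.0142.

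**Figure D5:**
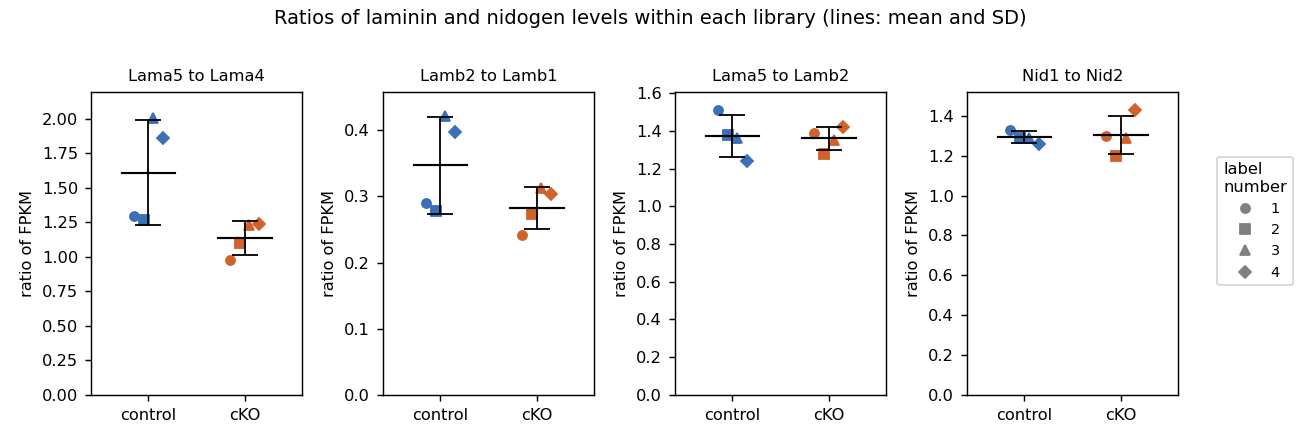
Ratios of FPKM within each library (vertical axes, each starting at 0) in the controls and the cKO libraries, with the label number as the symbol and the mean and SD of 4 libraries as lines. The ratio of Lama5 to Lama4 separates the groups, at 1.27 to 2.01 against 0.977 to 1.24, while that of Lama5 to Lamb2 stays between 1.24 and 1.51 in all libraries. The ratios are not corrected for GC content.

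Lamc3, a gamma chain outside the members, lay at 0.175 to 0.395 FPKM over the libraries and, like Lamb3, was too low to be tested.

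Of 24 other basement membrane genes, 22 were tested and 0 passed with limma (at an unadjusted p under 0.05, 1 was higher and 2 lower). Their median log2 fold change was -0.14, and 19 of 22 lay below 0, beside 50.3% of all genes. With GC content and length corrected for, the median was -0.04, and it was -0.32 without controls 3 and 4. Fbln2, which encodes fibulin-2, a partner of laminins and nidogens, lay at 8.44, 7.82, 10 and 8.51 FPKM among the controls and 4.06, 6.21, 3.61 and 4.14 FPKM in the cKO libraries (limma adjusted p = 0.0749). Tinag, a nephritis antigen of tubular basement membranes, went the other way without overlap, at 3.43 to 4.12 FPKM and 5.37 to 5.87 FPKM (limma adjusted p = 0.0588), beside 9.61% of all genes without overlap on that side. Col18a1, the basement membrane collagen that yields endostatin, lay at 12.3 to 18 FPKM and 8.88 to 14.1 FPKM, which overlapped (limma adjusted p = 0.133). Col4a1, chosen after its values were seen as the collagen IV chain of the same sheet, lay at 126.9, 123.5, 59.3 and 60.4 FPKM among the controls and 95.3, 98.5, 63.2 and 68.4 FPKM in the cKO libraries, with the step by number that Lamc1 showed.

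Of 12 receptors and partners of laminins, 11 were tested and 0 passed (at an unadjusted p under 0.05, 2 were higher and 2 lower), with a median of -0.01. Bcam, the Lutheran glycoprotein, binds laminins that carry the Lama5 chain. It lay at 28.2, 27.8, 28.2 and 28.9 FPKM among the controls and 19.8, 25.2, 19.3 and 18.1 FPKM in the cKO libraries. The groups did not overlap, beside 5.75% of all genes without overlap on that side, and cKO 2 again lay nearest the controls. The log2 fold change of Bcam was -0.45 ± 0.10 (SE; adjusted p by limma = 0.0782). The transcript of Bcam held 60.8% GC, like Lama5. Cd151, a tetraspanin partner of laminin-binding integrins, lay at 22.0 ± 1.10 and 17.7 ± 1.37 FPKM without overlap, on the same side as Bcam (limma adjusted p = 0.0881). Itga6, an integrin subunit for laminins, lay at 13.4 ± 1.61 and 16.2 ± 1.12 FPKM (limma adjusted p = 0.159).

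Dystroglycan binds laminins through a sugar chain that a set of enzymes builds. Of 13 such enzyme genes 11 were tested and 0 passed (at an unadjusted p under 0.05, 2 were higher and 1 lower), with a median of -0.08. Rxylt1, a xylosyltransferase of this pathway, lay at 6.66 ± 0.31 FPKM among the controls and 7.85 ± 0.923 FPKM in the cKO libraries (SD, n = 4 each; limma adjusted p = 0.221). The dystrophin complex, which joins dystroglycan to the cytoskeleton, had 8 of 12 genes tested, of which 0 passed, also at an unadjusted p under 0.05, with a median of -0.01. Sntb1, a syntrophin, had a log2 fold change of 0.24, and Dmd, which encodes dystrophin, one of 0.18 (limma adjusted p = 0.262 and 0.302).

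Of 12 proteases that act on basement membranes or their proteins, 9 were tested and 0 passed (at an unadjusted p under 0.05, 1 was lower and 0 higher), with a median of -0.20. Bmp1, which processes laminin chains and procollagens, lay at 11.6, 11.6, 12.6 and 12.8 FPKM among the controls and 8.80, 10.3, 7.63 and 8.34 FPKM in the cKO libraries, without overlap (limma adjusted p = 0.0758). On that side 5.75% of all genes had no overlap. Ctsl, a lysosomal protease, lay at 18.4 ± 2.11 and 15.8 ± 0.97 FPKM, and Adamts1, which cleaves nidogens, at 7.90 ± 0.412 and 6.61 ± 1.26 FPKM (SD, n = 4 each; limma adjusted p = 0.231 and 0.272). Without cKO 2, limma called Fbln2, Bcam, Bmp1, Col18a1 and Smoc2 lower and Tinag higher, beside 4.15% of all genes called lower and 5.57% higher. With all 8 libraries, it called 0 genes of these lists and 0 members both before and after the GC and length correction. After the correction 0.0286% of all genes were called. The correction was not run without cKO 2.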

How the data were processed

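Bulk RNA-seq of 8 libraries was deposited as 1 table of FPKM per gene. Per the submitters' processing notes, CASAVA, fastp, HISAT2, featureCounts, DESeq2 1.20.0 and GRCm39 were used. Roles, settings and strand use: not given in the sources used here. Litter, batch and sex are not labelled. The table has 3 blank lines, not analysed here.

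The 14220 genes whose mean reached 1 FPKM were compared on log2(FPKM + 1) with limma 3.58.1 in R 4.3.3 (mean-variance trend, 2-sided, Benjamini-Hochberg adjustment over all tested genes, threshold 0.05). The scale understates changes of low genes. Whole reads were recovered from the FPKM steps, 100% of values within 0.01, for limma-voom and for depth; precision from them covers counting error only. GC content came from the longest GENCODE M21 transcript (98.4% of tested genes), and promoters from RefSeq. The fit was tested on simulated counts with larger changes than any member showed, and without outlying libraries, a step by label number or a GC trend. Its power for smaller changes in such data was not tested. The GC correction was tested apart, on a simulated GC trend.

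The members and gene lists were chosen with earlier results of these data known. Named are the 10 members, Slmap, the called genes of each other list or else its 3 genes of smallest p, and the 3 genes nearest in profile to Lama5 and Lamc1. Other genes were named after their values were seen. Some genes that the rule names are not reported here.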

Additional observations from a re-analysis of the deposited data

Results flagged for a closer look

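Lama2 in cKO 3, at 0.778 FPKM, lay far below the other cKO libraries, which held 1.21 to 1.23 FPKM. Its gap to the nearest of them was 0.95 of the range of the group, above Dixon's critical value for 4 samples. It was the 1 of 22 groups that passed, and chance passes about 1 in 20.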

How the results depend on the processing

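Limma called 2 genes in all and 0 members. The count over all genes was 0 with a pseudocount of 0.1, with no filter, with limma-voom and with limma-voom on summed reads (chosen after seeing the data; it moved the median of all genes to -0.07). It was 31 with median-ratio scaling, 34 with quantile normalization, 4 after the GC and length correction, 2209 with array quality weights and 1099 with the term for numbers 1 and 2 against 3 and 4. Members called were 2 with the weights and 2 with that term. Leaving out 1 library gave 0 to 1382 genes and 0 to 2 members, with both upper values from cKO 2. With the replicate number as a block, 0 genes and 0 members were called, and the numbers share no stated source. Deviations of same-numbered libraries correlated at 0.069, 0.326, 0.15 and 0.213. Those of differently numbered libraries correlated at -0.361 to 0.387.

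Lama5 and Lamb2 stayed below 0 in all 20 alternatives, at -0.47 to -0.18 and -0.46 to -0.17 (adjusted p of 0.0165 to 0.415 and 0.0159 to 0.46). Lamb1, Nid1 and Nid2 also stayed below 0, the closest being Nid1 without control 1. The sign turned with the weights for Lama1 (-0.00386), Lama2 (-0.01) and Lama4 (-0.13), and without controls 3 and 4 for Lama1 (-0.07), Lama2 (-0.07) and Lama4 (-0.27). Leaving out 1 library gave -0.05 to 0.20 for Lama4, -0.23 to 0.04 for Lamc1, -0.21 to -0.02 for Lamb1 and Nid2, and -0.21 to -7.51e-05 for Nid1. The cause was not tested. Depth limits Lama3 most, at 69 reads in its lowest library.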
